A study of Mus musculus with 11 samples.

Results

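RNA-Seq of mouse embryonic stem cells (ESCs) was examined for 10 genes of glucose uptake and glycolysis, the glucose transporter gene Slc2a1 and the enzyme genes Hk2, Gpi1, Pfkl, Pfkp, Aldoa, Gapdh, Pgk1, Eno1 and Ldha. They were picked by gene symbol and are 10 of the 23284 genes listed for each library. The series is about 5-hydroxymethylcytosine in RNA, which Tet proteins make, and its 11 libraries fall into 5 groups. Of these, 4 groups of 2 libraries each hold ribodepleted total RNA of wild-type (WT) ESCs or of ESCs in which Tet1, Tet2 and Tet3 were knocked out (triple knockout, TKO), taken as 0 h controls or 4 h into treatment with α-amanitin at 10 µg/ml, which blocks RNA polymerase II. The treatment protocol names water as the vehicle of the controls, whereas the sample titles call the 0 h libraries non-treated. The fifth group held 3 libraries of polyadenylated RNA from untreated WT ESCs. All cells were grown on gelatin in high-glucose medium with serum, pyruvate and leukemia inhibitory factor. The sources used here do not say whether the WT and TKO cells are 1 clone each, so genotype and cell line cannot be told apart. The study describes the replicates of the α-amanitin experiment as biological. For the polyA libraries the sources used here do not say whether they came from separate cultures, so p-values that rest on them measure only the spread between these libraries, which may be technical.

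Glycolysis splits glucose into pyruvate in the cytosol and yields ATP and NADH. Glucose enters through transporters of the Slc2a family, is trapped by hexokinase, is committed by phosphofructokinase, is split by aldolase, and gives its energy up at the steps from Gapdh to pyruvate kinase. Lactate dehydrogenase then turns pyruvate into lactate and restores NAD+. ESCs are known for high rates of glycolysis with lactate release, and several genes of the pathway are textbook targets of the hypoxia-inducible factors and of Myc.

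The deposited values are TPM, a length-corrected share of a library's transcripts, so levels of different genes can be compared. Reads recovered from the TPM steps summed to between 25507874 and 29781366 in the ribodepleted libraries and to between 72639837 and 82129168 in the polyA libraries. Every member except Eno1 had at least 1368 reads in each ribodepleted library, which corresponds to a counting error of at most 2.70%. Libraries were put on 1 scale by median-of-ratios size factors (scaled TPM), and limma compared the ribodepleted groups on log2(scaled TPM + 1) for the 12467 genes with a mean above 1. A gene is said to rise or fall where its Benjamini-Hochberg adjusted p from limma (two-sided) was under 0.05. Of the targeted genes, Tet1 measured 143 and 124 scaled TPM in the WT libraries at 0 h against 30 and 30.2 in TKO, and for Tet2 the values were 55.5 and 48.1 against 7.73 and 7.17. Both genes were lower in both TKO libraries but not at 0. Tet3 measured 1.42 and 1.48 against 1.39 and 1.51, and these libraries overlapped, so its low level does not check the label.

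Untreated WT cells set the reference for the pathway. At 0 h Gapdh was the most abundant member, at 1737 ± 34.9 scaled TPM (SD, n = 2), rank 62 of the 17847 genes above 0. Aldoa (1098 ± 5.19) and Ldha (1094 ± 20.8) followed, and their libraries overlapped. Pgk1 stood at 275 ± 2.92, Gpi1 at 242 ± 1.31, Slc2a1 at 173 ± 12.4 and Pfkp at 75.5 ± 2.79. Hk2 (126 ± 3.52) and Pfkl (126 ± 3.54) could not be ordered, as their libraries overlapped. Summed over the 10 genes, the deposited TPM came to 5005 ± 101 in WT at 0 h, 5379 ± 50.1 in WT at 4 h, 4093 ± 36.8 in TKO at 0 h, 4325 ± 181 in TKO at 4 h (n = 2 each) and 9043 ± 93.4 in the WT polyA libraries (n = 3). The TKO libraries lay below the WT ribodepleted libraries at both times, and the polyA libraries far above all others. In the ribodepleted libraries 2 short RNAs, Rpph1 and Rmrp, took between 12.2% and 14.7% of all TPM, against at most 0.00142% in the polyA libraries, which lowers every other deposited TPM of a ribodepleted library.

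Eno1 could not be measured by its own row. Enolase 1 turns 2-phosphoglycerate into phosphoenolpyruvate, and its gene lies at chr4:149610830-149622988 (NCBIM37, the mm9 assembly). Its row held 2 to 15 reads per library, that is 0.0312, 0.124 and 0.0272 TPM in the polyA libraries and 0.234 and 0.432 scaled TPM in WT at 0 h. The row of Gm5506, a gene copy chosen here after its values were seen, held 49.4 and 49.1 scaled TPM in WT at 0 h and 34.1 and 36.4 in TKO at 0 h. Of the 2027 bases of the Eno1 transcript, 85.6% aligned to Gm5506 at 99.5% identity. How the counting shared reads between the pair is not given in the sources used here. Eno1 fell below the filter on low values, so 9 of the 10 members were tested, and neither row is read as the level of enolase 1.

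Near-identical copies touch 3 further members. Stretches of at least 100 bases at 97% identity or more elsewhere in the NCBIM37 genome covered 88.6% of the Gapdh transcript (42 matches), 95.7% of that of Pgk1 (3 matches) and 65.1% of that of Gpi1 (1 match). Their values are therefore less certain than those of Slc2a1, Hk2, Pfkl, Pfkp, Aldoa and Ldha, for which no such stretch was found.

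The comparison of TKO with WT asks what the absence of the Tet proteins goes with in untreated cells. At 0 h, 6 of the 9 tested glycolysis genes fell in TKO (Pfkp, Pfkl, Ldha, Pgk1, Aldoa and Slc2a1) and none rose. Across all 12467 genes 28.2% were called lower and 27.8% higher. Of the members, 4 fell by more than 1.5-fold, where 5.43% of all genes were that much lower and 10.5% that much higher. The median log2 change of the members was -0.45, against -0.019 over all genes. After 4 h in α-amanitin, 7 of the 9 were lower in TKO than in WT and none was higher, beside 30.3% and 29.1% of all genes. The same 4 genes, Pfkp, Pfkl, Ldha and Pgk1, passed 1.5-fold there, beside 5.82% lower and 11% higher of all genes, and the medians were -0.55 and -0.0051. The 4 h groups are separate libraries from the 0 h groups.

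**Figure D1:**
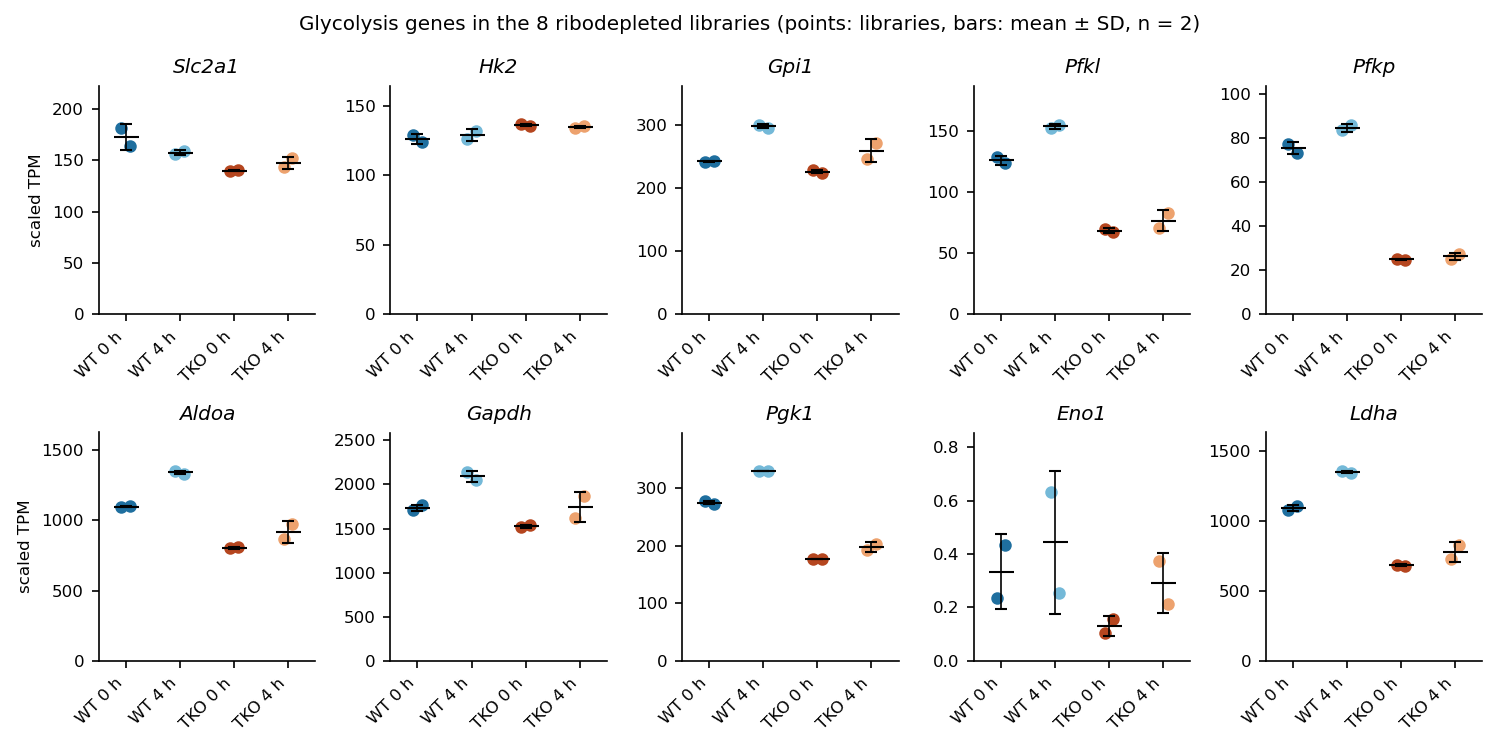
Scaled TPM (y axis, from 0, own scale for each gene) of the 10 glycolysis genes in the 8 ribodepleted libraries, grouped by genotype and time on the x axis, with each library as a point and the mean ± SD (n = 2) as a bar. Pfkl, Pfkp, Pgk1 and Ldha sit lower in all 4 TKO libraries than in any WT library, while Hk2 hardly differs between the groups and Eno1 stays under 1.

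Glucose entry came first in the pathway. Slc2a1 encodes Glut1, the basal glucose transporter of most cells (chr4:118781316-118809935). It stood at 182 and 164 in WT at 0 h, 156 and 159 in WT at 4 h, 139.6 and 140.3 in TKO at 0 h and 143 and 152 in TKO at 4 h scaled TPM. All TKO libraries lay below all WT libraries, by a wide margin at 0 h and a narrow one at 4 h. The log2 change in TKO was -0.30 ± 0.056 (SE, adjusted p = 0.00191) at 0 h and -0.093 ± 0.056 (adjusted p = 0.182) at 4 h, so that only the first passed the test. Without scaling the 4 h difference had the other sign, at 0.064.

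Hk2 encodes hexokinase 2, which phosphorylates glucose at the mitochondrial surface (chr6:82675019-82724448). It measured 129 and 124 in WT at 0 h, 126 and 132 in WT at 4 h, 137 and 136 in TKO at 0 h and 134 and 136 in TKO at 4 h scaled TPM. The TKO libraries lay slightly above the WT libraries at each time. The log2 changes of 0.11 ± 0.044 (0 h, adjusted p = 0.0626) and 0.064 ± 0.044 (4 h, adjusted p = 0.238) did not pass the test. Without scaling both did, at 0.20 (adjusted p = 0.0138) and 0.22 (adjusted p = 0.00855).

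Gpi1, glucose-6-phosphate isomerase (chr7:34987141-35015308), makes the substrate of phosphofructokinase. Its level was 241 and 243 in WT at 0 h, 300.1 and 295 in WT at 4 h, 228 and 224 in TKO at 0 h and 246 and 272 in TKO at 4 h scaled TPM. TKO was below WT at each time, and TKO at 4 h lay above WT at 0 h. The log2 change was -0.099 ± 0.053 (adjusted p = 0.141) at 0 h and -0.20 ± 0.053 (adjusted p = 0.00964) at 4 h. After quantile normalisation the 4 h difference was 0.019 with an adjusted p of 0.675.

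Among the members, Pfkp and Pfkl had the largest changes between the genotypes at both times. Phosphofructokinase is the committing step of glycolysis and works as a tetramer of liver (Pfkl), platelet (Pfkp) and muscle (Pfkm) type subunits. Pfkp (chr13:6579014-6648023) stood at 77.5 and 73.5 in WT at 0 h, 83.6 and 86.0 in WT at 4 h, 25.2 and 24.7 in TKO at 0 h and 25.2 and 27.4 in TKO at 4 h scaled TPM. Every TKO library lay far below every WT library, at a fold of 0.339 at 0 h and 0.318 at 4 h. The log2 changes were -1.56 ± 0.054 (adjusted p = 2.65e-07) and -1.65 ± 0.054 (adjusted p = 1.84e-07).

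Pfkl (chr10:77449692-77472828) stood at 129 and 124 in WT at 0 h, 153 and 156 in WT at 4 h, 69.9 and 67.4 in TKO at 0 h and 70.6 and 82.9 in TKO at 4 h scaled TPM. The TKO and WT libraries did not overlap, and the highest TKO library was far below the lowest WT library. Pfkl changed by -0.87 ± 0.07 (adjusted p = 1.71e-05) at 0 h and -1.0 ± 0.07 (adjusted p = 7.83e-06) at 4 h on the log2 scale. Pfkm, the subunit gene that is no member, went the other way at 16.3 and 16.4 scaled TPM in WT and 31 and 30.7 in TKO at 0 h. It rose by 0.88 ± 0.063 (adjusted p = 9.45e-06) at 0 h and by 0.69 ± 0.063 (adjusted p = 3.08e-05) at 4 h.

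The makeup of phosphofructokinase transcripts differed between the genotypes accordingly. A share of the summed TPM of the 3 genes does not depend on the scaling of a library. Pfkm took 7.51% ± 0.246 of the sum in WT at 0 h and 24.8% ± 0.291 in TKO at 0 h (SD, n = 2). Pfkp took 34.6% ± 0.285 and 20% ± 0.123, and Pfkl 57.9% ± 0.0391 and 55.1% ± 0.414. At 4 h the shares were 7.89% ± 0.550 and 24.6% ± 0.646 for Pfkm, 32.7% ± 0.365 and 19.3% ± 0.620 for Pfkp, and 59.4% ± 0.184 and 56.1% ± 1.27 for Pfkl. The Pfkm and Pfkp shares of WT and TKO libraries were far apart, whereas Pfkl remained the leading subunit gene in all ribodepleted libraries. The shares are given as a description, without a test. The summed deposited TPM of the 3 genes was 221 ± 12.4 in WT and 135 ± 1.65 in TKO at 0 h.

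**Figure D2:**
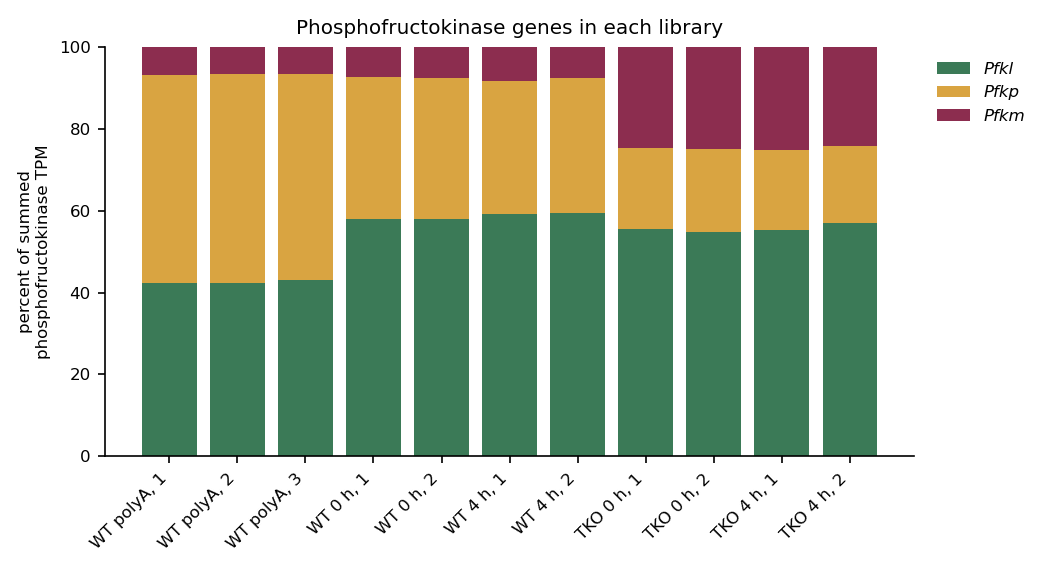
Share of the summed phosphofructokinase TPM (y axis, percent) taken by Pfkl, Pfkp and Pfkm in each of the 11 libraries (x axis, group and replicate number). Pfkm takes over 20% of the sum in the 4 TKO libraries and under 10% in the 7 WT libraries, and Pfkp takes the largest part only in the WT polyA libraries.

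Shares within the other steps moved less between the genotypes at 0 h. Slc2a1 made up 27.6% ± 1.03 of Slc2a1 plus Slc2a3 in WT and 23.5% ± 0.0476 in TKO. Hk2 made up 88.1% ± 0.332 and 89.1% ± 0.0336 of Hk1 plus Hk2, and Aldoa 98.5% ± 0.0669 and 98.9% ± 0.0103 of Aldoa plus Aldoc. Ldha took 91.5% ± 0.0899 of Ldha plus Ldhb in WT and 88.9% ± 0.255 in TKO. Hk2, Aldoa and Ldha were thus the main transcript of their pair in both genotypes, whereas Slc2a3, the gene of a high-affinity transporter, was above Slc2a1 in all 11 libraries.

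Aldoa, fructose-bisphosphate aldolase A (chr7:133938748-133944265), splits the sugar into 2 trioses. It stood at 1095 and 1102 in WT at 0 h, 1351 and 1333 in WT at 4 h, 801 and 808 in TKO at 0 h and 865 and 976 in TKO at 4 h scaled TPM. The 4 TKO libraries lay below the 4 WT libraries. It fell by 0.45 ± 0.064 (adjusted p = 4.45e-04) at 0 h and differed by -0.55 ± 0.064 (adjusted p = 1.28e-04) at 4 h on the log2 scale.

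Gapdh, glyceraldehyde-3-phosphate dehydrogenase (chr6:125111871-125116485), makes the NADH of the pathway and is widely used as a reference transcript. It stood at 1712 and 1761 in WT at 0 h, 2138 and 2046 in WT at 4 h, 1513 and 1537 in TKO at 0 h and 1625 and 1867 in TKO at 4 h scaled TPM. TKO was below WT at each time, but the higher TKO library at 4 h exceeded both WT libraries at 0 h. The log2 change of -0.19 ± 0.076 at 0 h missed the threshold (adjusted p = 0.0623, 95% interval -0.36 to -0.015), although it passed with all 11 libraries in 1 fit (-0.20, adjusted p = 0.0353) and with limma voom on recovered reads (-0.19, adjusted p = 0.00874). That of -0.26 ± 0.076 at 4 h passed it (adjusted p = 0.0151). Without scaling the 4 h difference was -0.11 (adjusted p = 0.0591), after quantile normalisation it was -0.079 (adjusted p = 0.141), and without WT replicate 1 at 4 h it was -0.24 (adjusted p = 0.08). The study's qPCR primers for Gapdh are shown because transcript levels were normalised to this gene or to 18S rRNA in its qPCR, and they bound an amplicon of 87 bases at positions 688 to 774 of the 1420-base transcript:
Gapdh sense primer: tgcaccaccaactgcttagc
Gapdh antisense primer: ggcatggactgtggtcatgag

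Pgk1, phosphoglycerate kinase 1 (chrX:103382439-103399038), makes the first ATP of the pathway. Its level was 277 and 273 in WT at 0 h, 331 and 331 in WT at 4 h, 177 and 178 in TKO at 0 h and 193 and 204 in TKO at 4 h scaled TPM. The TKO libraries all lay below the WT libraries, with replicates close together. Pgk1 changed by -0.63 ± 0.044 (adjusted p = 8.53e-06) at 0 h and -0.74 ± 0.044 (adjusted p = 3.69e-06) at 4 h.

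Ldha, the muscle-type subunit of lactate dehydrogenase (chr7:54096845-54110997), favours lactate production. It stood at 1079 and 1109 in WT at 0 h, 1356 and 1342 in WT at 4 h, 688 and 678 in TKO at 0 h and 726 and 827 in TKO at 4 h scaled TPM. Again the 4 TKO libraries were below the 4 WT libraries. The log2 change was -0.68 ± 0.066 (adjusted p = 5.16e-05) at 0 h and -0.80 ± 0.066 (adjusted p = 1.93e-05) at 4 h.

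**Figure D3:**
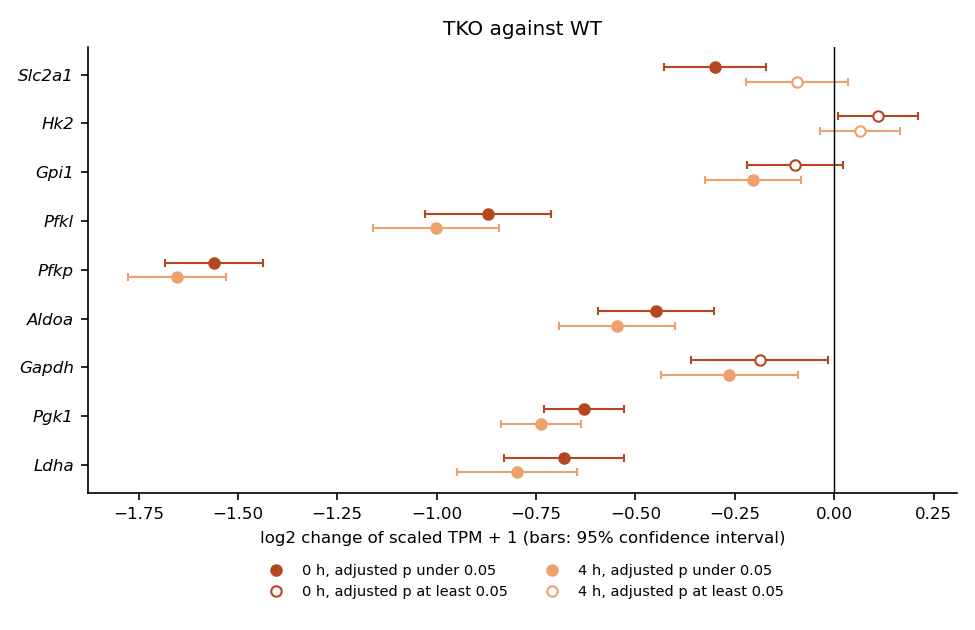
Log2 change of scaled TPM + 1 in TKO against WT (x axis) for the 9 tested glycolysis genes (y axis), at 0 h and at 4 h in α-amanitin, with 95% confidence intervals from limma and filled points for an adjusted p under 0.05. Pfkp lies farthest from 0 at -1.56 and -1.65, and Hk2 is the only gene to the right of 0.

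The calls for Pfkp, Pfkl, Pgk1, Ldha and Aldoa at both times, and for Slc2a1 at 0 h, kept their direction and stayed under the threshold in all 14 alternatives run for each. Scaling moves the median of all genes: without it the median log2 change was 0.07 at 0 h and 0.14 at 4 h, and higher calls made up 65.5% and 70.9% of calls in place of 49.7% and 49%.

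The promoters of the 4 genes that passed 1.5-fold at both times are shown because these genes moved together. RefSeq listed a promoter for all 10 members, with 3 starts each for Aldoa and Eno1 and 2 for Ldha. For each gene the first start listed was used, and other starts were not searched. The stretches are the 250 bases before the start in RefSeq (GRCm38.p6, 5′ to 3′ on the gene's strand). Capitals mark each ACGTG, a form of the core of the hypoxia-inducible factor site, or its reverse complement. Other forms of the core were not searched.
Pfkl (chr10:78009808-78010057, minus strand): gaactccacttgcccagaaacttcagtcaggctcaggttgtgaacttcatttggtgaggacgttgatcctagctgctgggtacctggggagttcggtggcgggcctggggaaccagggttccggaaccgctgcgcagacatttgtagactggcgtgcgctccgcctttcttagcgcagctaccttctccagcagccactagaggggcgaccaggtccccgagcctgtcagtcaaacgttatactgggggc
Pfkp (chr13:6648772-6649021, minus strand): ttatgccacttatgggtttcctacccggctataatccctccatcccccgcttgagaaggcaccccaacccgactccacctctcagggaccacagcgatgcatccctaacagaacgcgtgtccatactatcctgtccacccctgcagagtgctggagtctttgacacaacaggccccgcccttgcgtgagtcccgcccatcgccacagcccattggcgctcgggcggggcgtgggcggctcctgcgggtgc
Pgk1 (chrX:106186850-106187099, plus strand): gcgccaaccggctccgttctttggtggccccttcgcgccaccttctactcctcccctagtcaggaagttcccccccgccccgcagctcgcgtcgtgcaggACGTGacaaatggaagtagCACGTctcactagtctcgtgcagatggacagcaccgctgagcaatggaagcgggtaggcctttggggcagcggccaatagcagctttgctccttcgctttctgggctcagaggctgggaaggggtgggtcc
Ldha (chr7:46845554-46845803, plus strand): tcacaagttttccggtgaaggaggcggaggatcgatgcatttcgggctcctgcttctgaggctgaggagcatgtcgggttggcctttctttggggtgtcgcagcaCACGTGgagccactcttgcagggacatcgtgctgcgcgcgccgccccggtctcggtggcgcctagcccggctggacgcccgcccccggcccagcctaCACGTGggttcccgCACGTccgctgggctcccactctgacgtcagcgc

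Ldha held 5 matches to ACGTG on either strand, 4 of them within 2 copies of the palindromic E-box CACGTG. Pgk1 held 2, with first bases 150 and 131 before the start, and Pfkl and Pfkp held none. Over the 10 members, 4 promoters (Slc2a1, Hk2, Pgk1 and Ldha) contained ACGTG, against 16.6% of the 27025 promoters when 1 start per gene was taken. The E-box, which contains ACGTG, was found in 1 of the 10 against 6.05%, the GC box GGGCGG in 6 against 32.9%, and TATAAA in none against 13%. The GC content of the members' stretches ran from 50.4% (Aldoa) to 69.6% (Hk2), against a median of 52.0% over all promoters. Its part in these counts was not tested. Hk2, with ACGTG, did not pass the test between genotypes, and Pfkp, without it, had the largest change of the members. Any link between these letters and the changes was not tested. A match in these letters is a description and not a site.

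Other genes of the pathway went less uniformly. Of 24 other glycolysis genes, 17 were tested at 0 h and 7 fell and 5 rose in TKO, beside 28.2% of all genes lower and 27.8% higher. The median log2 change of the 17 was -0.10. Tpi1, which interconverts the triose phosphates, stood at 369 and 392 scaled TPM in WT and 207 and 204 in TKO at 0 h and fell by 0.89 ± 0.063 (adjusted p = 9.01e-06). Aldoc, the brain-type aldolase gene, fell by 0.82 ± 0.061 (adjusted p = 1.19e-05) from 16.2 and 17.3 to 8.95 and 9.16 scaled TPM. At 4 h 9 of the 17 were lower and 5 higher, beside 30.3% and 29.1% of all genes. Among the 5 was Pgam2, a phosphoglycerate mutase gene, at 0.98 ± 0.12 (adjusted p = 1.63e-04). Its level was low, at 1.57 and 1.32 scaled TPM in WT and 3.97 and 3.67 in TKO at 4 h.

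Of the 15 genes that regulate the pathway, all tested, 8 fell and 2 rose in TKO at 0 h, beside 28.2% and 27.8% of all genes. Pdk1, a kinase that switches off pyruvate dehydrogenase, stood at 108 and 106 scaled TPM in WT and 46.9 and 47.9 in TKO. Its log2 change was -1.16 ± 0.041 (adjusted p = 2.98e-07). Pdk4, of the same family, changed by -0.82 ± 0.15 (adjusted p = 0.00146), while Pfkfb3, whose product makes the phosphofructokinase activator fructose-2,6-bisphosphate, rose by 0.78 ± 0.12 (adjusted p = 7.64e-04) from a level of only 3.93 and 3.55 scaled TPM.

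Hypoxia-responsive genes outside glycolysis went in both directions. Of 16 listed, 13 were tested at 0 h and 5 fell and 4 rose in TKO, beside 28.2% of all genes lower and 27.8% higher. The median log2 change of the 13 was 0.068. The mitophagy receptor gene Bnip3 fell by 1.18 ± 0.075 (adjusted p = 4.95e-06), whereas Ndrg1 rose by 1.15 ± 0.065 (adjusted p = 2.76e-06) and P4ha2, a collagen prolyl hydroxylase gene, by 0.94 ± 0.077 (adjusted p = 2.00e-05).

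Marker genes of cell state also moved with genotype. At 0 h, 5 of the 6 ESC markers fell in TKO, led by Zfp42 at -2.08 ± 0.067 (adjusted p = 1.74e-07), where 28.2% of all genes were called lower and 27.8% higher. Nanog did not fall. It measured 38.9 and 37.2 scaled TPM in WT and 40.9 and 44.6 in TKO at 0 h, so both TKO libraries lay above both WT libraries. The summed deposited TPM of the 6 ran from 2203 to 2241 in WT and from 1538 to 1551 in TKO at 0 h. Summed TPM of 6 trophoblast markers ran from 50.0 to 53.2 in WT and from 65.0 to 66.9 in TKO, with 2 of 4 tested higher, and that of 7 fibroblast markers from 8.65 to 8.75 and from 12.8 to 13.3, with 2 of 4 tested higher. The trophoblast and fibroblast sums were thus higher in TKO while the ESC sum was lower. These are sums of deposited TPM and not on the scale of the changes. Most of the trophoblast sum lay in Tfap2c, which overlapped on scaled TPM (48.1 and 46.4 in WT, 48.7 and 47.1 in TKO). The trophoblast markers called higher were Plac1 at 2.34 ± 0.14 (adjusted p = 3.79e-06) and Hand1 at 1.63 ± 0.11 (adjusted p = 7.81e-06). Primitive endoderm markers (6 genes) ran from 5.00 to 5.16 and from 4.04 to 4.82, and mesoderm and neural markers (6 genes) from 188 to 191 and from 154 to 155. Single genes of both lists went both ways at 0 h. Gata4 changed by -0.61 ± 0.10 (adjusted p = 0.00113) and Dab2 by 0.47 ± 0.11 (adjusted p = 0.00700). The Dab2 call was lost after quantile normalisation (0.28, adjusted p = 0.0669). Tubb3, which held most of the mesoderm and neural sum, changed by -0.43 ± 0.056 (adjusted p = 2.59e-04) and Neurod1 by 0.64 ± 0.15 (adjusted p = 0.00556). Most of the higher fibroblast sum lay in Col1a2, a collagen gene, at 1.56 and 1.49 scaled TPM in WT and 4.65 and 4.78 in TKO at 0 h. Col1a1, the other fibroblast marker called higher, sat just under the threshold at 0.25 ± 0.095 (adjusted p = 0.0497). Its call was lost after quantile normalisation (0.10, adjusted p = 0.368) and with all 11 libraries in 1 fit (adjusted p = 0.0766). A block by replicate number (adjusted p = 0.0602) and dropping the filter on low values (adjusted p = 0.0815) also lost it. Col3a1 (1.87 and 2.16 against 1.99 and 2.04) and Thy1 (1.44 and 1.25 against 1.11 and 1.44) overlapped between the genotypes. Postn had lower values in TKO (0.757 and 1.25 against 0.244 and 0.296). Lum was at 0 in both WT libraries and at 0.119 and 0.168 in TKO. Dcn was at 0.0332 and 0.0335 in WT and at 0.297 and 0.267 in TKO, and stayed under 0.5 in all ribodepleted libraries. In such bulk samples fewer cells of a type and less RNA per cell cannot be told apart, and the part of these markers in the lower glycolysis genes of TKO was not tested.

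The comparison of 4 h with 0 h in α-amanitin asks which transcripts persist while new transcription is blocked. TPM are relative, so a loss shared by all transcripts cannot be seen, and a rise is one relative to the other genes. In WT cells 7 of the 9 tested members rose (Gpi1, Pfkl, Pfkp, Aldoa, Gapdh, Pgk1 and Ldha) and none fell, beside 21.9% of all genes called higher and 15.8% called lower. None passed 1.5-fold. The median log2 change was 0.27 for the members and 0.028 for all genes. Ldha rose by 0.30 ± 0.066 (adjusted p = 0.0113), Gpi1 by 0.30 ± 0.053 (adjusted p = 0.00692) and Pfkp, the smallest of the 7, by 0.17 ± 0.054 (adjusted p = 0.0405). For each of the 7, both libraries at 4 h lay above both at 0 h. The summed deposited TPM of the 6 ESC markers ran from 2063 to 2109 at 4 h, below the 0 h libraries. That sum is not on the scale of the changes above. On scaled TPM 1 of the 6 rose, Pou5f1, by 0.33 ± 0.076 (adjusted p = 0.0128), and 2 fell. Pou5f1 stood at 1122 and 1186 scaled TPM at 0 h and 1481 and 1423 at 4 h. The part of these markers in the result was not tested.

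Aldoa rose by 0.29 ± 0.064 (adjusted p = 0.0117), Pfkl by 0.29 ± 0.07 (adjusted p = 0.0155), Gapdh by 0.27 ± 0.076 (adjusted p = 0.0254) and Pgk1 by 0.27 ± 0.044 (adjusted p = 0.00620). The 2 genes of glucose uptake and trapping did not join them. Slc2a1 changed by -0.13 ± 0.056 (adjusted p = 0.0934) and Hk2 by 0.031 ± 0.044 (adjusted p = 0.600). Among the other glycolysis genes 9 of 17 rose and none fell, beside 21.9% of all genes higher and 15.8% lower. Eno3 led at 0.35 ± 0.075 (adjusted p = 0.0107). Among the regulators 4 of 15 rose and 5 fell, with Txnip, which restrains glucose uptake, at -0.68 ± 0.081 (adjusted p = 0.00340), Myc, a transcription factor gene, at -0.64 ± 0.066 (adjusted p = 0.00217) and Pdk4 at -0.61 ± 0.15 (adjusted p = 0.0147). Without WT replicate 1 at 0 h Pdk4 was at -0.38 (adjusted p = 0.0813) and without WT replicate 1 at 4 h at -0.53 (adjusted p = 0.0903). Eno3 missed the threshold without scaling (0.20, adjusted p = 0.0729) and without either of these libraries (adjusted p = 0.0697 and 0.0524).

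The count of members that rose in WT depended on the scaling and on single libraries. Without scaling the median of all genes was -0.11, higher calls made up 11.2% of all calls in place of 58.1%, and 3 members passed as higher (Gpi1, Aldoa and Ldha) and Slc2a1 as lower (-0.29, adjusted p = 0.0117). After quantile normalisation none passed as higher and Slc2a1 passed as lower (-0.26, adjusted p = 0.0232). All 7 kept a change above 0 in each of the 14 alternatives. After quantile normalisation, however, the median of the tested members was only 0.080, against 0.041 over all genes. Leaving out 1 library left 0 members higher without WT replicate 1 at 4 h, 2 without WT replicate 1 at 0 h, and 4 without either of the others.

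In TKO cells none of the 9 members passed the test at 4 h, with 0% of all genes called higher and 0.265% lower by limma. The members' median log2 change was 0.16 and that of all genes 0.013. At an unadjusted p under 0.05 stood 3110 genes in either direction and 5 members, and a fit of recovered reads with limma voom, added once the data had been seen, called 234 genes and 2 members higher (Gpi1 and Aldoa). Gpi1 changed by 0.19 ± 0.053 (adjusted p = 0.121), Aldoa by 0.19 ± 0.064 (adjusted p = 0.141), Gapdh by 0.19 ± 0.076 (adjusted p = 0.175) and Ldha by 0.18 ± 0.066 (adjusted p = 0.155). The 2 TKO libraries at 4 h stood apart, with replicate 2 above replicate 1 for all 9 members, for example 726 and 827 scaled TPM of Ldha. Without replicate 1 at 4 h, 6 members passed as higher (Gpi1, Pfkl, Aldoa, Gapdh, Pgk1 and Ldha), where 1575 of 12436 genes were called higher and 1225 lower. Txnip was the 1 regulator that fell, at -0.55 ± 0.081 (adjusted p = 0.0488). This call was lost in 7 of the alternatives, with adjusted p from 0.0509 with the replicate number as a block to 0.244 without TKO replicate 1 at 0 h.

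**Figure D4:**
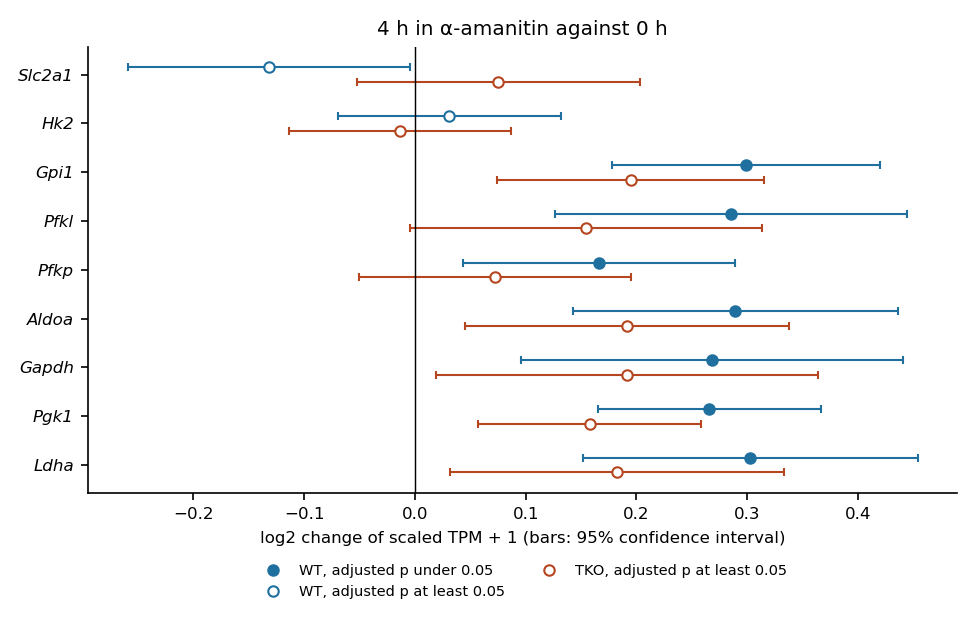
Log2 change of scaled TPM + 1 after 4 h in α-amanitin against 0 h (x axis) for the 9 tested glycolysis genes (y axis) in WT and TKO, with 95% confidence intervals from limma and filled points for an adjusted p under 0.05. The 7 WT genes that passed lie between 0.17 and 0.30, and the TKO intervals overlap the WT intervals for every gene.

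The difference between the 2 amanitin responses was tested directly. No member passed, and limma called 0% of all genes higher and 0% lower. An unadjusted p under 0.05 was found for 938 genes, limma voom also called none, and the smallest adjusted p was 0.532. The members' median difference, TKO minus WT, was -0.098 on the log2 scale, against -0.015 over all genes. For Ldha it was -0.12 (95% interval -0.33 to 0.093, adjusted p = 0.716), for Pgk1 -0.11 (-0.25 to 0.034, adjusted p = 0.687) and for Gapdh -0.077 (-0.32 to 0.17, adjusted p = 0.837). These intervals leave room for differences in both directions. The WT, TKO and genotype comparisons share libraries, so their values stand side by side and are not independent of each other.

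Polyadenylated and ribodepleted libraries of untreated WT cells were compared in a fit of their own (12478 genes). The RNA fraction, the library kit, the sequencing run and any difference between the cultures cannot be told apart here. Of the 9 tested members, 7 were higher in the polyA libraries and none was lower, beside 40.2% of all genes higher and 40.8% lower. More than 1.5-fold higher were 4, beside 18.7% and 16.4% of all genes. The median log2 difference was 0.31 for the members and -0.0075 for all genes.

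Slc2a1 stood at 633, 693 and 654 scaled TPM in the 3 polyA libraries and at 192 and 173 in the ribodepleted pair on the scale of this fit. It was 3.61-fold higher, a log2 difference of 1.85 ± 0.056 (adjusted p = 1.78e-08). Pgk1 stood at 824, 793 and 869 against 292 and 288 (1.51 ± 0.047, adjusted p = 1.99e-08). The polyA libraries of both genes were far above the ribodepleted ones.

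Pfkp stood at 193, 191 and 191 against 81.7 and 77.6 (1.26 ± 0.037, adjusted p = 1.48e-08), and Gapdh at 4049.8, 3878 and 4109 against 1806 and 1859 (1.13 ± 0.052, adjusted p = 1.78e-07). Their polyA libraries again lay far above, and Pfkp took 50.7% ± 0.262 of the phosphofructokinase TPM there (SD, n = 3) and Pfkl 42.6% ± 0.307. The differences of Hk2 (0.31 ± 0.035, adjusted p = 4.63e-05), Pfkl (0.27 ± 0.036, adjusted p = 1.16e-04) and Aldoa (0.18 ± 0.043, adjusted p = 0.00442) were small. Ldha, at 1188, 1145 and 1212 against 1139 and 1170.1, overlapped between the groups (0.034 ± 0.045, adjusted p = 0.503), and Gpi1 differed by 0.057 ± 0.033 (adjusted p = 0.148). Without scaling both passed as higher in polyA, Gpi1 at 0.16 (adjusted p = 0.00189) and Ldha at 0.14 (adjusted p = 0.00205), and Gpi1 also passed after quantile normalisation (0.11, adjusted p = 0.00890).

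**Figure D5:**
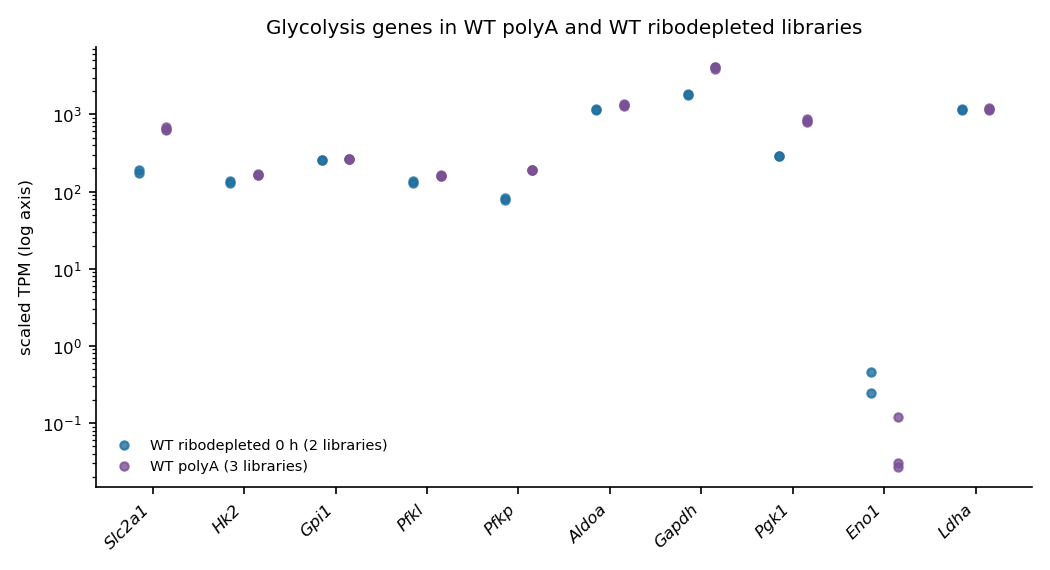
Scaled TPM (y axis, log axis) of the 10 glycolysis genes in the 3 WT polyA libraries and the 2 WT ribodepleted 0 h libraries, each library a point, on the scale of the fit over these 5 libraries. Slc2a1, Pfkp, Gapdh and Pgk1 sit higher in the polyA libraries, Ldha overlaps, and Eno1 stays under 1 in both.

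Hypoxia-responsive genes moved with these members. Of 14 tested, 13 were higher in the polyA libraries and none was lower, beside 40.2% of all genes higher and 40.8% lower. The median log2 difference of the 14 was 1.0. Egln3, a prolyl hydroxylase gene induced by the hypoxia-inducible factors, was 6.80-fold higher (adjusted p = 7.69e-10), Vegfa, an angiogenic growth factor gene, 4.78-fold (adjusted p = 1.15e-07) and Bnip3 4.27-fold (adjusted p = 1.55e-08). The summed TPM of the 16 listed genes was between 709 and 733 in the polyA libraries and between 270.2 and 297 in the ribodepleted pair, and its part in the members' difference was not tested. Among the other glycolysis genes 13 of 17 were higher and 2 lower, led by Eno2, the neuronal enolase gene, at 1.46 ± 0.069 (adjusted p = 2.07e-07).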

How the data were processed

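RNA-Seq of 11 mouse ESC libraries was analysed. Deposited files hold TPM per gene symbol, made by the authors with AfterQC, Bowtie2 (removal of rRNA and tRNA reads), Trimmomatic, STAR on mm9 with RefSeq genes and HTSeq counting. The submitters' notes also name FastQC. Versions were not given in the sources used here, nor was the strand option of HTSeq. Sample titles gave groups and replicate numbers. The members, gene lists and naming rule were chosen with earlier results of these data known.

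Here, median-of-ratios size factors over the tested genes scaled the 8 ribodepleted libraries. Limma 3.58.1 in R 4.3.3 (trended eBayes, 1 coefficient per group, no block) then fitted log2(scaled TPM + 1), a scale that understates changes of low genes, for genes with mean scaled TPM above 1. WT polyA and WT 0 h libraries had their own fit. From each list, up to 3 genes per comparison were named by absolute change among those that passed without overlap between libraries. Whole reads were recovered from TPM ratios for 100% of 19869 genes (tolerance 0.001 reads). They gave depth and fed voom. Replicates differed beyond counting noise, with a chi-square of at least 1.53 per degree of freedom. The test was checked on simulated data. Alternatives covered scaling, pseudocount, filter, variance trend, block, a fit of all libraries, voom and leaving out each library. Gene positions are from NCBIM37, copies from blastn 2.17.0, promoters from RefSeq (GRCm38.p6).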

Additional observations from a re-analysis of the deposited data

Results flagged for a closer look

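One member, Slc2a1, moved in opposite ways in every library of the 2 genotypes. Both WT libraries at 4 h (156 and 159 scaled TPM) lay below both at 0 h (182 and 164), and both TKO libraries at 4 h (143 and 152) lay above both at 0 h (139.6 and 140.3). The amanitin change in TKO minus that in WT was 0.21 on the log2 scale (95% interval 0.027 to 0.39). In the limma fit its unadjusted p was 0.0291 and its adjusted p 0.662, so the difference did not pass the test over all genes. Without scaling and after quantile normalisation the TKO change itself was -0.022 and -0.0056.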

How the results depend on the processing

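Over the single values of the members, 720 alternatives kept direction and side of the threshold, 37 lost the call, 20 gained one and 15 changed sign. In the comparison of WT at 4 h with 0 h, the 7 members higher became 3 without scaling, 0 after quantile normalisation, 0 with a 1.5-fold minimum and 0 to 4 when 1 library was left out. The 0 members lower became 1 without scaling, 1 after quantile normalisation and 0 to 1 when 1 library was left out (Slc2a1, without WT replicate 2 at 0 h). In TKO the 0 members higher became 2 with voom on recovered reads, added after seeing the data, and 0 to 6 when 1 library was left out. Between genotypes, the 0 members higher became 1 without scaling and 1 after quantile normalisation at 0 h, and likewise 1 and 1 at 4 h (Hk2 each time). The 6 lower at 0 h became 7 with voom and with all 11 libraries in 1 fit (Gapdh), and the 7 lower at 4 h became 5 without scaling and 5 after quantile normalisation (Gpi1 and Gapdh lost). The 7 higher in polyA became 9 without scaling and 8 after quantile normalisation. A 1.5-fold minimum left 4 of the 7 lower at 4 h and 4 of the 7 higher in polyA. With no filter on low values, 1 member (Eno1) was lower in polyA. Without short RNAs the summed TPM of the members was 5937 in WT at 0 h, 6442 in WT at 4 h, 4792 in TKO at 0 h and 5120 in TKO at 4 h. The fewer calls under a 1.5-fold minimum and the larger sums without short RNAs follow from their construction, and for the other changes the cause was not tested.

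Signs turned mostly with the scaling. Without it, Hk2 in WT at 4 h against 0 h was -0.13 on the log2 scale, Slc2a1 and Pfkp in TKO at 4 h against 0 h were -0.022 and -0.022, the difference between the amanitin responses was 0.017 for Hk2, and Slc2a1 in TKO against WT at 4 h was 0.064. After quantile normalisation Hk2 in WT was -0.098, Slc2a1 in TKO at 4 h against 0 h was -0.0056, the difference between the responses was 0.017 for Gpi1, 0.0067 for Pfkp and 0.011 for Aldoa, Gpi1 in TKO against WT was 0.0021 at 0 h and 0.019 at 4 h, Slc2a1 in TKO against WT at 4 h was 0.0901, and Ldha in polyA was -0.019. Leaving out 1 library moved the difference between the responses of Gapdh between -0.18 and 0.029. Tet3 in TKO against WT at 0 h was -0.17 after quantile normalisation, -0.0061 with all 11 libraries in 1 fit, -0.0026 with voom and between -0.037 and 0.034 without 1 library, and at 4 h it was -0.17 after quantile normalisation. None of these reversed values was a call in the reported fit except Gpi1 at 4 h.

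Deviations of same-numbered libraries correlated between -0.044 and 0.12, so no strong shared deviation by number was visible. This does not settle whether same-numbered libraries were prepared together. A fit with the replicate number as a block left 7 members higher in WT, 6 lower in TKO at 0 h, 7 lower in TKO at 4 h and 6 in place of 7 higher in polyA, where Aldoa was at 0.16 (adjusted p = 0.0888). With 2 libraries per group, differences near the size of the amanitin changes sit close to the threshold, and Eno1, at 2 to 15 reads, cannot be compared at this depth.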

Other observations

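Genes next to glycolysis were listed with the members. Of 8 pentose phosphate genes, 2 fell and 2 rose in TKO at 0 h, beside 28.2% of all genes lower and 27.8% higher. Pgls, the lactonase of the pathway, changed by -0.74 ± 0.10 (limma adjusted p = 3.24e-04) and G6pdx, which opens it, by -0.51 ± 0.06 (adjusted p = 1.48e-04), while Rpia, a ribose isomerase gene, rose by 0.65 ± 0.067 (adjusted p = 6.88e-05). In WT after 4 h of α-amanitin 5 of the 8 rose on scaled TPM and none fell, beside 21.9% of all genes higher and 15.8% lower. Pgls, Tkt and Taldo1, the members of the list with the largest changes there, missed the threshold without scaling (adjusted p = 0.194, 0.0751 and 0.180) and after quantile normalisation (adjusted p = 0.156, 0.107 and 0.288).

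Of 25 genes of pyruvate entry and the citric acid cycle, 10 fell and 5 rose in TKO at 0 h, beside 28.2% and 27.8% of all genes. The median log2 change of the 25 was -0.019, equal to that of all genes. Brp44l, a subunit gene of the mitochondrial pyruvate carrier, changed by -1.14 ± 0.11 (adjusted p = 3.87e-05) and Pcx, pyruvate carboxylase, by -0.56 ± 0.087 (adjusted p = 7.08e-04). In WT at 4 h 21 of the 25 rose on scaled TPM and none fell, beside 21.9% of all genes higher and 15.8% lower. The median of the 25 was 0.25. Without scaling, 397 of all genes were called higher and 3145 lower in this comparison, against 2730 and 1965 with it. Of the 3 gluconeogenesis genes tested, Pck2, a mitochondrial phosphoenolpyruvate carboxykinase gene, fell by 0.72 ± 0.063 in TKO at 0 h (adjusted p = 2.99e-05) and Fbp2 rose by 0.37 ± 0.13 (adjusted p = 0.0393). The Fbp2 call was lost after quantile normalisation (0.16, adjusted p = 0.294), with no filter on low values (adjusted p = 0.0538), with voom (adjusted p = 0.0552) and without TKO replicate 1 or 2 at 0 h (adjusted p = 0.143 and 0.106), and without WT replicate 1 at 0 h Fbp2 was at 0.18 (adjusted p = 0.264).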
